A study of Homo sapiens with 5 samples.

Results

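FOS, FOSB, JUN, JUNB, EGR1, EGR2, EGR3, EGR4, ARC and NPAS4 are 10 immediate early genes, the genes that neurons switch on first when they are stimulated. They were taken by name and not by their values, although earlier results of these data were known. All 10 were among the 32732 genes listed in both annotations of the deposited tables. Their transcripts were followed in human neuron-like, progenitor-like and astrocyte-like cells of 5 single-cell RNA-seq libraries.

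All 5 libraries came from brain organoids of AAVS-ChR2-EYFP H9, a human embryonic stem cell line that carries a channelrhodopsin and a yellow fluorescent protein and that is labelled wild type. D0 was organoid tissue at day 42 of culture, before grafting. HIP_2MPT, PFC_2MPT, HIP_4MPT and PFC_4MPT were day 42 organoids grafted into the hippocampus (HIP) or the prefrontal cortex (PFC) of SCID mice (also given as SCID-Beige) of 6 to 8 weeks and recovered 2 or 4 months post transplantation (MPT). SCID hosts lack B and T lymphocytes. Fluorescent graft tissue was dissected and digested with 0.25% Trypsin-EDTA and DNase for 30 min, whereas D0 was dissociated with TrypLE. The sources used here name no light stimulation of the channelrhodopsin before these libraries were made. Each condition was 1 library and the number of grafts in it is not given, so a stage had 1 HIP and 1 PFC library as its replicates, a site had 1 library of each stage, and D0 had none. The p-values therefore measure the spread between those libraries and not the spread between animals of 1 condition. Enzyme, Cell Ranger release and annotation all differed between D0 and the grafts, so their part in any difference from D0 cannot be told apart from that of grafting and age.

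When a neuron is depolarised, calcium entry activates kinases that act on the transcription factors CREB, SRF with its ternary complex partners, and MEF2, and immediate early transcripts appear within minutes without new protein synthesis. FOS, FOSB, JUN and JUNB encode subunits of the dimeric factor AP-1, EGR1, EGR2, EGR3 and EGR4 encode zinc-finger factors, NPAS4 encodes a basic helix-loop-helix PAS factor, and ARC encodes a protein that acts at synapses on AMPA receptor traffic. Growth factors, stress and warm enzymatic digestion are known to induce most of these genes in many cell types, whereas NPAS4 is known for its selectivity for depolarisation in neurons.

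CREB and SRF are known to act on several of these genes from the bases just before the start site, so 4 promoters are printed below, those of FOS for AP-1, EGR1 for the SRF motif, and EGR4 and NPAS4 because the comparisons below turn on them. They are RefSeq sequences of build GRCh38.p14, 5′ to 3′, cut off where the GENCODE gene begins. Capitals mark CRE cores (TGACG, or CGTCA on the other strand), the CREB motif in its shortest form, and CArG boxes, the SRF motif.
FOS, chr14:75278578-75278825, plus strand: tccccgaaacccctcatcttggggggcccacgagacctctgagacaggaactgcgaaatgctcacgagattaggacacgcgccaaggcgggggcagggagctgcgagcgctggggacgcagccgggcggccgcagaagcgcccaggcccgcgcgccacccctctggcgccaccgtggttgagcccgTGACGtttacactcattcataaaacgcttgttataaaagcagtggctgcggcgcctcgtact
EGR1, chr5:138465229-138465478, plus strand: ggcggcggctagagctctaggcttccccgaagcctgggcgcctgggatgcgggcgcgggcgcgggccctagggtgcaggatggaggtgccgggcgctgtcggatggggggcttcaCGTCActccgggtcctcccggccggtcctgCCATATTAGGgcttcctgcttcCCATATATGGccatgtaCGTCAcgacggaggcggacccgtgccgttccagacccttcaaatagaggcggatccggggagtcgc
EGR4, chr2:73293702-73293798, minus strand: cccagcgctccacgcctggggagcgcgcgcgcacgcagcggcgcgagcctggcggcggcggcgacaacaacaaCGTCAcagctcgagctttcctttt
NPAS4, chr11:66420754-66421003, plus strand: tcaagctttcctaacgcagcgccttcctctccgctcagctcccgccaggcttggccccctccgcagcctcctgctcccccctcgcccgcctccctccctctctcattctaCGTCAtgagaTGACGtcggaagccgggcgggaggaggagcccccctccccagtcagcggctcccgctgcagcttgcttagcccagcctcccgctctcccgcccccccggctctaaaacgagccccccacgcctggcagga
The EGR1 promoter held 2 CArG boxes, 105 and 83 bases before the start site, and 2 CRE cores, 135 and 66 bases before it. NPAS4 held CRE cores 140 and 130 bases before its start, and FOS held 1 at 64 bases. EGR4 held CRE cores 177 and 109 bases before its RefSeq start, of which the second lies past the printed bases.

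Promoter windows were read for 8 members, EGR3 and ARC being left out. All 8 held a CRE core within 250 bases before a start site, EGR2 in 1 of its 3 windows. Of all 35116 windows of this length 21.2% held a CRE core and 1.16% a CArG box. A CArG box was also found in that EGR2 window. The full palindrome TGACGTCA, which 1.65% of windows held, was found in none of the windows of these 8 members. A match of letters is a description of the window and no measure of binding. In GRCh38 with GENCODE genes, FOS lies at chr14:75278826-75282230 and JUNB at chr19:12791486-12793315, both on the plus strand. EGR4 lies at chr2:73290929-73293701 on the minus strand and NPAS4 at chr11:66421035-66426707 on the plus strand. The counts were made per gene and do not show exons or transcripts.

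The libraries held 34390 human cells after filtering, between 4885 and 8363 in each, and the median depth ran from 1253 UMIs per cell in HIP_2MPT to 9847 in D0. Cell classes were set by clusters and marker genes, with the members left out of the clustering. The neuron-like class took in intermediate-progenitor clusters, which held 11.9% of its cells in D0 and 6.29% to 14.5% in the grafts. Neuron-like cells numbered 2066 in D0 and 4722 to 7375 in the grafts, progenitor-like cells 1857 and 352 to 515, and astrocyte-like cells 85 and 371 to 715. Pairs of libraries shared 6 to 20 cell barcodes. Neuron-like cells of the 2 kinds of tissue differed in makeup: 53.9% of those of D0 lay in a cluster led by Cajal-Retzius markers that was found in D0 alone and 15.5% in glutamatergic clusters led by neither heat-shock nor MTRNR2L genes, which held 61.8% to 86.7% of those of the grafts. Progenitor-like cells differed as well, since the radial glia cluster held 68.3% of those of D0 and 29.3% to 37.3% of those of the grafts, and the cycling clusters the rest. The astrocyte label had little behind it in D0 and at 2MPT. Its marker list summed to 203 counts per 1000000 UMIs (CPM) in D0, where GFAP had no UMI, and to 658 and 775 CPM in HIP_2MPT and PFC_2MPT, against 7268 and 5328 CPM in HIP_4MPT and PFC_4MPT, while radial glia markers summed to 4975 CPM or more in astrocyte-like cells of every library. Human UMIs made up 2.61% to 10.4% of the UMIs in barcodes of mouse host cells. Free RNA and doublets were not told apart as their source.

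Levels are given as CPM, from the UMIs of a gene summed over the cells of a class over all human UMIs of that class, always in the order D0, HIP_2MPT, PFC_2MPT, HIP_4MPT, PFC_4MPT. With 1 library per condition no SD can be given for a condition, and intervals are exact Poisson 95% intervals, which cover counting error only. In pooled cells of a class, fewer cells with a transcript and less transcript per cell cannot be told apart.

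**Figure D1:**
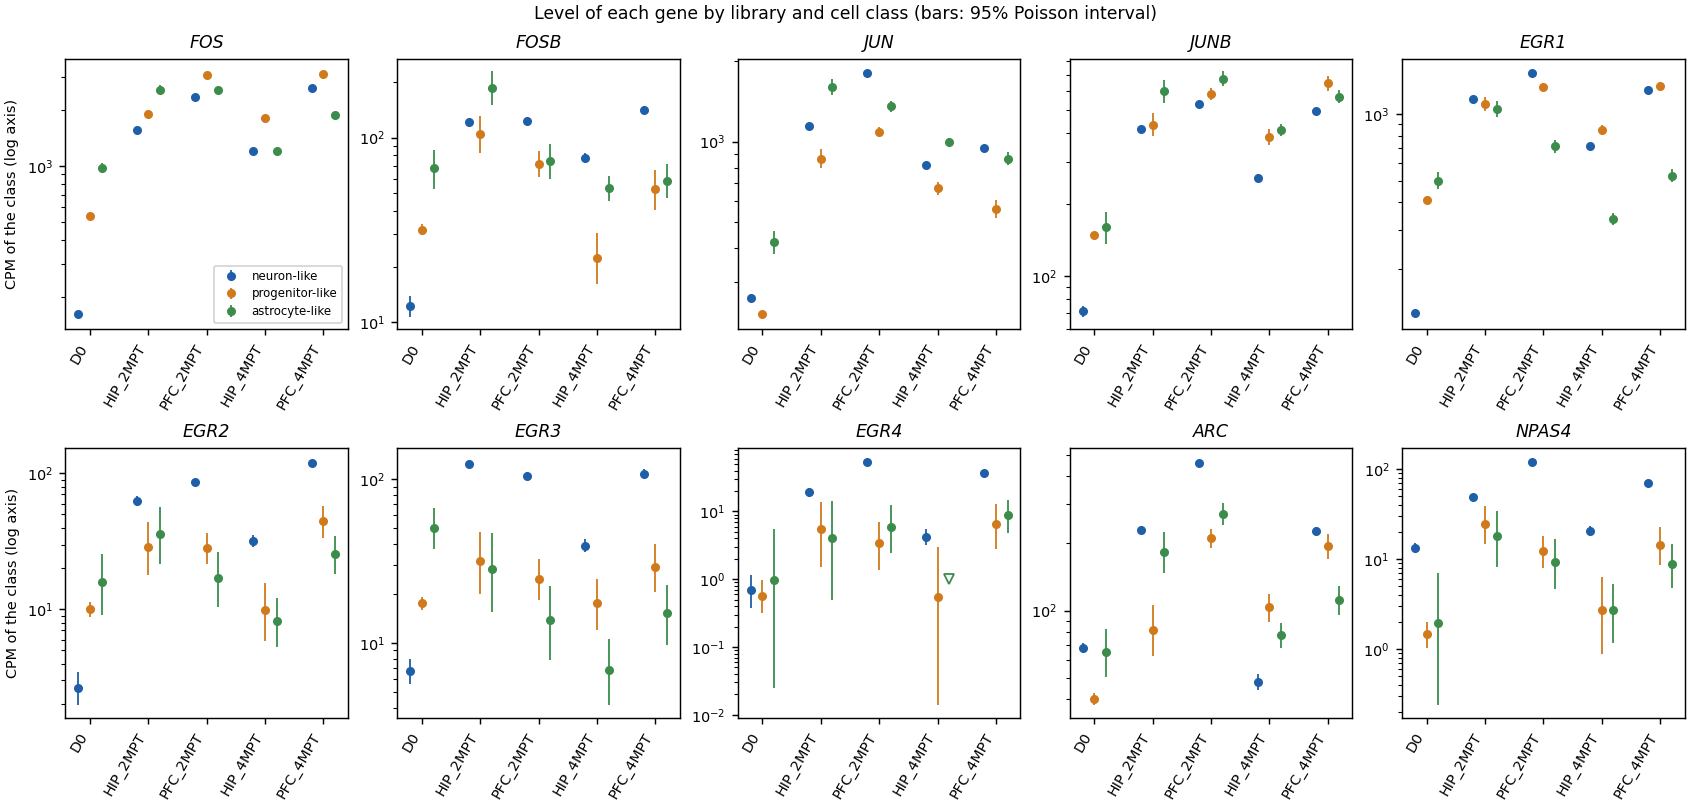
CPM of each member (log axis) in each library (x axis) for neuron-like (blue), progenitor-like (orange) and astrocyte-like cells (green); bars are 95% Poisson intervals of counting error. The open triangle stands for EGR4 in astrocyte-like cells of HIP_4MPT, which had 0 UMIs and is drawn at the CPM of 3 UMIs. In neuron-like cells D0 is the lowest library for every member except ARC, whose lowest level was 47.8 CPM in HIP_4MPT.

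In neuron-like cells the AP-1 genes were abundant in every graft. FOS, which pairs with JUN proteins in AP-1, stood at 162, 1560.4, 2334, 1199 and 2607 CPM. JUN stood at 262, 1142, 1801, 815 and 945 CPM. JUNB, a JUN protein that often limits JUN activity, stood at 71.0, 413, 528, 259 and 495 CPM. FOSB, whose truncated product is known to build up under repeated stimulation, had 12.2, 121, 123, 77.7 and 141 CPM. For all 4 genes the lowest graft lay well above D0, and HIP_4MPT was the lowest graft.

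Of the zinc-finger genes EGR1, a broadly inducible regulator, stood at 127, 1167, 1538, 715 and 1282 CPM. EGR2, known also as a myelination factor in Schwann cells, had 2.63, 62.7, 86.1, 31.8 and 119 CPM. EGR3, which is known to act downstream of neurotrophin signals, had 6.71, 124, 105, 39.3 and 108 CPM. The order of the grafts was not the same for the 3 genes, but D0 was the lowest library and HIP_4MPT the lowest graft for each of them.

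EGR4 had 0.696 CPM in D0 (0.380 to 1.17, from 14 UMIs) and 19.1, 53.2, 4.25 and 36.9 CPM in the grafts, from 52 to 595 UMIs. NPAS4 had 13.4, 49.1, 120.4, 20.5 and 71.2 CPM. ARC had 68.0 CPM in D0 (64.5 to 71.7) and 229.9, 461, 47.8 and 227 CPM in the grafts. For these 3 genes PFC_2MPT was the highest library and HIP_4MPT the lowest graft, and ARC was the only member with a graft below D0.

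Progenitor-like cells carried the AP-1 genes and EGR1 at levels of the same order. FOS stood at 539, 1898, 3076, 1799 and 3101 CPM, JUN at 229, 864, 1089, 671 and 562 CPM, and JUNB at 149, 433, 583, 385 and 645 CPM. EGR1 stood at 412, 1113, 1330.3, 848 and 1334 CPM. FOSB had 31.7, 104, 72.0, 22.4 and 52.7 CPM, so that HIP_4MPT was below D0. ARC had 40.1, 82.2, 211, 103 and 194 CPM and was lowest in D0.

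The remaining EGR genes and NPAS4 were low in progenitor-like cells. EGR2 had 10.0, 28.8, 28.4, 9.83 and 44.6 CPM and EGR3 17.4, 31.5, 24.5, 17.5 and 29.2 CPM, so for both genes HIP_4MPT was close to D0. NPAS4 rested on 5 to 36 UMIs per library, with 1.47, 24.7, 12.2, 2.73 and 14.6 CPM. EGR4 rested on 1 to 14 UMIs and lay between 0.546 and 6.48 CPM. The D0 interval (0.312 to 0.959 CPM) lay below those of HIP_2MPT, PFC_2MPT and PFC_4MPT. The intervals of the grafts overlapped, so these counts cannot rank the grafts.

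In astrocyte-like cells FOS stood at 977, 2553, 2536, 1205 and 1871 CPM and JUN at 421, 1597, 1353, 996 and 864 CPM. JUNB stood at 159.8, 598, 676, 411 and 568 CPM, and EGR1 at 500.2, 1058, 718, 337 and 528 CPM. The grafts were above D0 for FOS, JUN and JUNB, whereas for EGR1 HIP_4MPT was below it. ARC had 65.1, 183, 272, 77.5 and 111 CPM. FOSB lay between 53.2 and 187 CPM, EGR2 between 8.19 and 36.1 CPM and EGR3 between 6.82 and 50.3 CPM, with D0 the highest library for EGR3. NPAS4 had 2 to 14 UMIs per library, 1.97 to 18.1 CPM. EGR4 had 0 to 14 UMIs, and its 0 UMIs in HIP_4MPT, where 3 UMIs equal 1.02 CPM, have an interval that reaches 1.26 CPM. The 85 cells of D0 carried no test.

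The first comparison asked how the grafts differed from the organoids they were made from. In neuron-like cells 9 of the 10 members were called higher in the 4 grafts than in D0 and none lower, where 28.7% of the 17693 genes tested were called higher and the median gene differed by 0.15 on the log2 scale. Tests were quasi-likelihood tests of edgeR on counts summed over the cells of a class, p-values were adjusted over all genes tested by the Benjamini-Hochberg method, and a call is an adjusted p under 0.05. Differences below are log2 fold changes with their SE. FOS was 3.46 ± 0.53 higher (adjusted p = 0.000319), JUNB 2.45 ± 0.43 (0.000835), FOSB 3.13 ± 0.42 (0.000125) and JUN 2.00 ± 0.37 (0.0012). Of the EGR genes EGR1 was 3.08 ± 0.45 higher (0.000225), EGR2 4.71 ± 0.75 (0.000404), EGR3 3.65 ± 0.57 (0.000342) and EGR4 5.17 ± 1.23 (0.00488).

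NPAS4 and ARC differed least clearly in this comparison. NPAS4 was 2.11 ± 0.67 higher (adjusted p = 0.0221), a call lost with DESeq2 (0.138) and with glutamatergic clusters alone, those led by heat-shock or MTRNR2L genes included (1.69, 0.0779). ARC differed by 1.57 ± 0.70 (0.0809) and was not called. Its HIP_4MPT level was below D0. With a graft left out, a stage rests on 1 library and the spread comes from the grafts of the other stage. In such fits ARC differed by 1.89 without HIP_4MPT, 1.79 without HIP_2MPT and 1.21 without PFC_2MPT. ARC was called without a filter on low counts (1.56, 2.69e-05). It was also called with glutamatergic clusters alone (2.19, 0.0397), an alternative chosen after seeing the data. D0 is 1 library of another cell makeup and another enzyme, and the p-values hold no spread of D0.

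In progenitor-like cells 6 members were called higher in the grafts, where 22.7% of 13009 genes were. FOS was 1.89 ± 0.38 higher (adjusted p = 0.000888), JUN 1.45 ± 0.31 (0.00138), JUNB 1.48 ± 0.36 (0.00403) and EGR1 1.18 ± 0.33 (0.00881). ARC was 1.59 ± 0.47 higher (0.0128) and NPAS4, from few UMIs, 2.68 ± 0.71 (0.007), a call lost without the 5% of cells with most UMIs (0.053). FOSB (0.52 ± 0.40), EGR3 (0.21 ± 0.36), EGR4 (2.32 ± 1.11) and EGR2 (1.13 ± 0.52, 0.0929) were not called. With a graft left out, which leaves a stage with 1 library, EGR2 differed by 1.10 without HIP_2MPT, 1.5 without HIP_4MPT and 1.08 without PFC_2MPT. The part of the makeup given above in these differences was not tested.

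**Figure D2:**
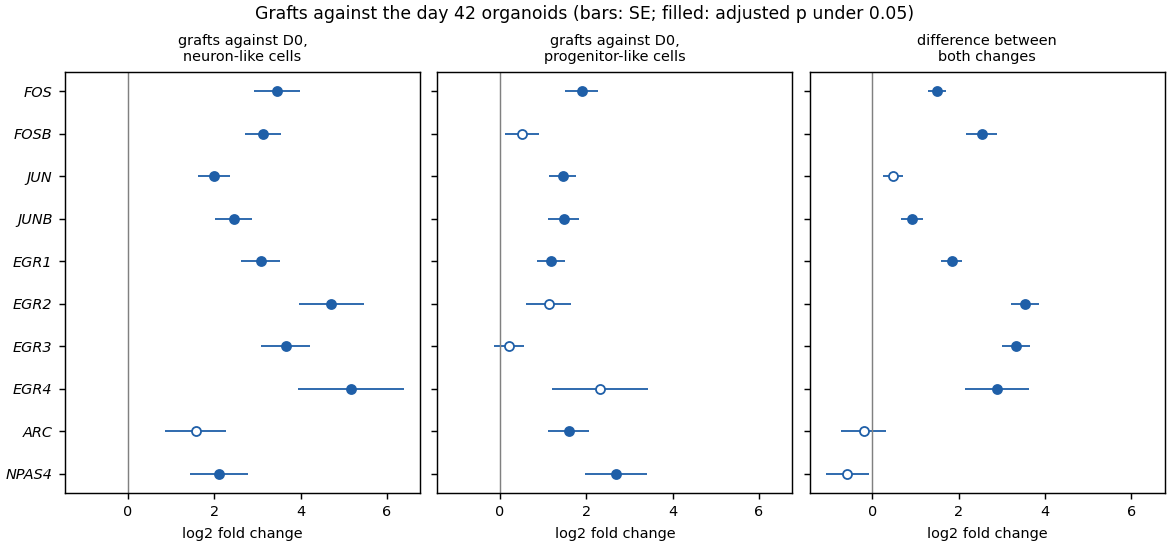
Log2 fold change of the 4 grafts against D0 for each member in neuron-like cells (left) and progenitor-like cells (middle), and the difference between both changes (right); points are estimates, bars are SE, and filled points have an adjusted p under 0.05. Filled points number 9, 6 and 7 from left to right, and EGR2 and EGR3 lie farthest right in the last panel.

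The change from D0 was larger in neuron-like than in progenitor-like cells for 7 members, where 2.18% of 18665 genes had a larger change in that direction by the same test. This test of the difference was added after the values had been seen, and both classes differed in cluster makeup between D0 and the grafts. D0 is 1 library, so the p-values hold no spread of its difference between classes. The difference between the changes was 3.53 ± 0.32 for EGR2 (adjusted p = 4.61e-07), 3.32 ± 0.32 for EGR3 (1.25e-06) and 2.89 ± 0.73 for EGR4 (0.0193). It was 2.53 ± 0.35 for FOSB (9.97e-05), 1.84 ± 0.23 for EGR1 (3.79e-05), 1.5 ± 0.21 for FOS (0.000124) and 0.91 ± 0.25 for JUNB (0.0332). JUN (0.48 ± 0.23, 0.285), ARC (−0.20 ± 0.52, 0.949) and NPAS4 (−0.58 ± 0.50, 0.642) did not pass. These 7 members passed whichever graft was left out, whereas EGR4 and JUNB did not pass with glutamatergic clusters alone (0.065 and 0.222) or DESeq2 (0.127 and 0.0854), and JUNB not at the finer clustering (0.126). In D0 the levels themselves lay below those of progenitor-like cells for FOS, FOSB, JUNB, EGR1, EGR2 and EGR3, and above them for JUN, ARC and NPAS4. For EGR4 the intervals of both classes overlapped.

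The second comparison asked whether members differed between the PFC and HIP grafts, with the stage held fixed, on 1 residual degree of freedom. In neuron-like cells 9 members had a higher CPM in the PFC than in the HIP graft at both stages, and only EGR3 did not, where 15.2% of the 15433 genes with a mean of at least 1 CPM had this order. For FOSB the counting intervals of both sites overlapped at 2MPT (123 CPM in the PFC and 121 CPM in the HIP graft). Mouse host cells of the same libraries had the higher CPM in the PFC graft at both stages for Fos, Jun, Junb, Egr1 and Egr2, but not for Fosb and Egr3. Of the members, EGR4 was called higher, where 0.0126% of 15904 genes were. The difference for EGR4, a zinc-finger factor of the EGR family, was 2.29 ± 0.38 (adjusted p = 0.0396), from 53.2 against 19.1 CPM at 2MPT and 36.9 against 4.25 CPM at 4MPT. The other 2 genes called were DLX5, a transcription factor of inhibitory neurons, at 2.87 ± 0.39 and KCTD8, an auxiliary subunit of GABA-B receptors, at −2.12 ± 0.33.

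NPAS4 and ARC followed EGR4 in size. NPAS4 differed by 1.59 ± 0.33 (adjusted p = 0.206) and ARC by 1.67 ± 0.38 (0.317), and both were past the threshold in 8 of 14 alternative analyses, with adjusted p from 0.00294 to 0.0457. EGR4 was past it in 12 of 14, but not without the 5% of cells with most UMIs (2.27, 0.0534) or without stage in the fit (2.01, 1.00). EGR2 differed by 1.23 ± 0.37 and FOS by 0.90 ± 0.36, and the other 5 members by 0.48 to 0.69, all with an adjusted p of 1.00. The median difference of the 10 members was 0.80, beside −0.01 for all genes.

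Neuron-like cells of the sites also differed in makeup. Inhibitory-neuron clusters made up 15.5% of those of PFC_4MPT and 4.47% of those of HIP_4MPT. A cluster led by mitochondrial-like MTRNR2L transcripts made up 14.5% and 2.05%. At 2MPT the inhibitory share was 0.268% in the PFC and 0.149% in the HIP graft, and the MTRNR2L share 1.11% and 0.692%. The cluster led by heat-shock genes held 4.72% in the PFC against 0.366% in the HIP graft at 2MPT, and 1.91% against 0.572% at 4MPT. With glutamatergic clusters alone, which leaves out the inhibitory and intermediate clusters and keeps the MTRNR2L one, the PFC against HIP difference was 1.77 ± 0.40 for ARC (adjusted p = 0.0108) and 1.68 ± 0.36 for NPAS4 (0.00395). Without the clusters led by heat-shock or MTRNR2L genes EGR4 was called, and ARC and NPAS4 were not. Heat-shock genes summed to 4306 and 3373 CPM in neuron-like cells of the PFC grafts (2MPT, then 4MPT) and to 3133 and 4322 CPM in those of the HIP grafts, ranges that overlapped. The median mitochondrial share was highest in PFC_4MPT, at 7.31% against 2.35% to 3.77% in the other libraries.

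In progenitor-like cells 4 members (FOS, JUNB, EGR1 and ARC) were higher in the PFC graft at both stages, where 19% of genes were. None was called, where 0.00898% of 11139 genes were called in either direction. FOS, JUNB and ARC had an unadjusted p under 0.05 in the edgeR test, where 289 of 11139 genes had one, and DESeq2 called none. ARC differed by 1.18 ± 0.29, EGR2 by 1.13 ± 0.52, FOS by 0.79 ± 0.24 and JUNB by 0.64 ± 0.26, each with an adjusted p of 0.999. In astrocyte-like cells 3 members (JUNB, EGR4 and ARC) were higher in the PFC graft at both stages, where 20.9% of genes were. At 2MPT the counting intervals of both sites overlapped for JUNB and for EGR4, which had 7 UMIs in the PFC and 2 in the HIP graft. No member was called by edgeR, where 0.171% of 11728 genes were called in either direction, or by DESeq2. None had an unadjusted p under 0.05 in the edgeR test, where 421 of the 11728 genes had one. ARC differed by 0.55 ± 0.29, FOS by 0.32 ± 0.26, JUN by −0.21 ± 0.27 and FOSB by −0.57 ± 0.32.

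**Figure D3:**
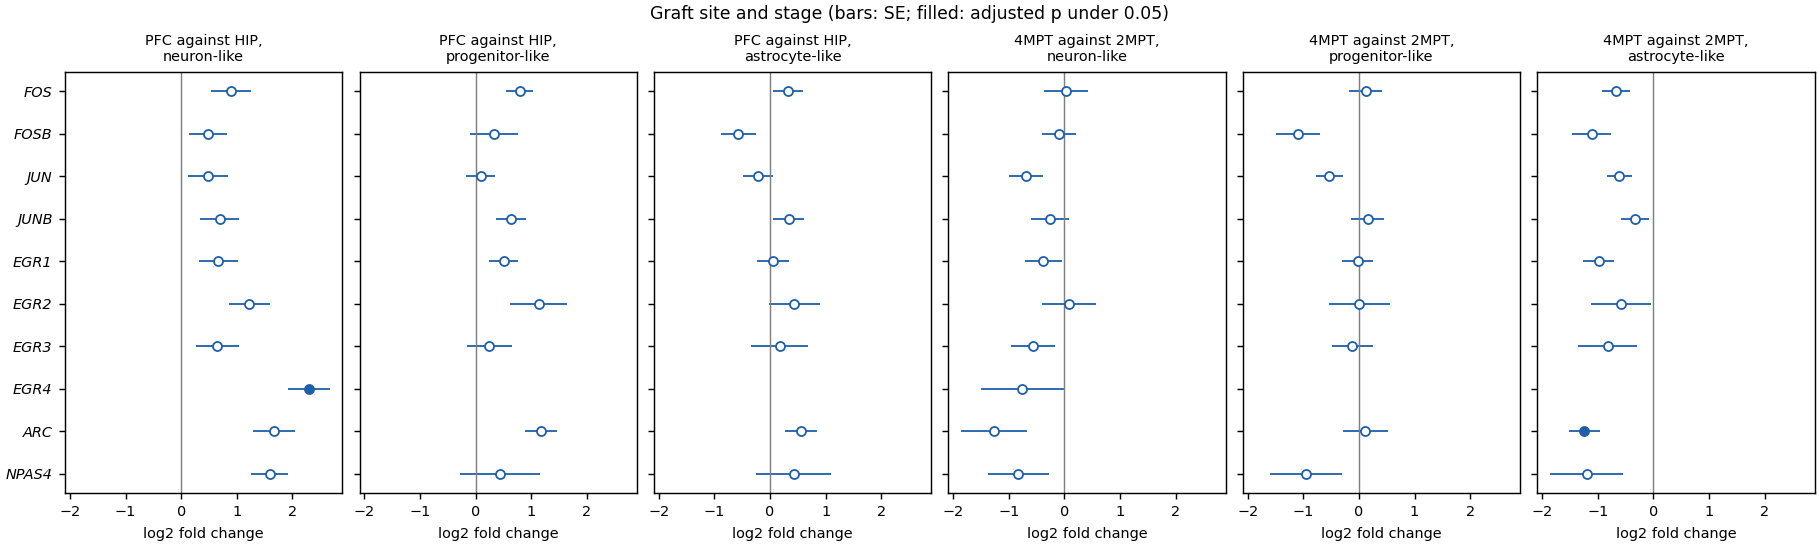
Log2 fold change of each member between PFC and HIP grafts (left 3 panels) and between 4MPT and 2MPT grafts (right 3 panels) in each cell class, on axes of their own; bars are SE and filled points have an adjusted p under 0.05. EGR4 is not plotted where too few UMIs were left for a test. The filled points are EGR4 at 2.29 in neuron-like cells between sites and ARC at −1.25 in astrocyte-like cells between stages.

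The third comparison set the 4MPT grafts against the 2MPT grafts. In neuron-like cells no member was called in the edgeR fit, where 0.849% of genes were called in either direction. JUN alone of the members had an unadjusted p under 0.05, where 2015 of 15904 genes had one. It stood at −0.69 ± 0.30 (adjusted p = 0.379), and DESeq2 called no member. In all, 6 members, JUN, JUNB, EGR1, EGR4, ARC and NPAS4, were lower at 4MPT at both sites, where 32% of genes were.

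ARC and NPAS4 showed the largest stage differences in neuron-like cells, at −1.26 ± 0.60 (adjusted p = 0.42) and −0.83 ± 0.54 (0.585), followed by EGR4 at −0.76 ± 0.75 (0.75). ARC was called without a filter on low counts (−1.27, 0.00058) and with graft site as a block (−1.59, 0.0429). With a graft left out, a stage rests on 1 library and stage is mixed with site. Without HIP_2MPT ARC differed by −1.70, NPAS4 by −1.35 and EGR4 by −1.33, and without PFC_4MPT ARC differed by −2.84. Within HIP grafts ARC at 4MPT was 0.208 times its 2MPT level and within PFC grafts 0.493 times, and the ratios for NPAS4 were 0.418 and 0.592. EGR3 at 4MPT was 0.318 times its 2MPT level in HIP grafts and 1.03 times in PFC grafts. Glutamatergic neuron markers summed to 7073 and 5888 CPM in neuron-like cells of HIP_2MPT and PFC_2MPT and to 4046 and 3312 CPM in those of HIP_4MPT and PFC_4MPT, and the part of this in the stage differences was not tested. The median difference of the 10 members between stages was −0.47, beside 0.00 for all genes.

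In progenitor-like cells no member was called between stages in the edgeR fit, where 0.682% of genes were called in either direction, and DESeq2 called none. FOSB at −1.10 ± 0.39 (adjusted p = 0.428) and JUN at −0.54 ± 0.24 (0.623) had an unadjusted p under 0.05, where 885 of 11139 genes had one. These 2 were the members lower at 4MPT at both sites, where 35.5% of genes were. For FOSB the counting intervals of the PFC grafts overlapped. Without PFC_2MPT, which leaves 1 library at 2MPT and mixes stage with site, FOSB differed by −1.34. EGR1 (−0.02 ± 0.27), EGR2 (0.01 ± 0.54), FOS (0.12 ± 0.30) and ARC (0.12 ± 0.41) lay near 0.

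In astrocyte-like cells ARC was called lower at 4MPT, where 0.972% of 11728 genes were, and 7 members (FOS, FOSB, JUN, JUNB, EGR1, ARC and NPAS4) were lower at both sites, where 31.7% of genes were. For FOSB (74.6 CPM in PFC_2MPT and 58.3 CPM in PFC_4MPT) and NPAS4 (9.43 and 8.87 CPM) the counting intervals of the PFC grafts overlapped. ARC fell from 183 and 272 CPM at 2MPT to 77.5 and 111 CPM at 4MPT, a difference of −1.25 ± 0.28 (adjusted p = 0.0265). EGR1 differed by −0.98 ± 0.28 (0.0834), FOSB by −1.11 ± 0.36 (0.13), FOS by −0.67 ± 0.25 (0.208) and JUN by −0.61 ± 0.23 (0.215), and none of them was called. The call for ARC was lost with classes set per cell (−0.66, 0.708). Calls for FOSB (−1.05) and EGR1 (−0.99) appeared with graft site as a block. With a graft left out, a stage rests on 1 library and stage is mixed with site. In such fits ARC was not called without HIP_4MPT (−0.98) or without PFC_2MPT (−0.88). FOSB (−1.66) and EGR1 (−1.21) differed more without PFC_2MPT, and FOS (−1.02) and EGR1 (−1.33) without PFC_4MPT. The astrocyte-like class changed in makeup between stages, since 1 of its clusters held 25.4% to 25.7% of the cells at 4MPT and 0.957% to 2.70% at 2MPT, and its astrocyte marker list rose as given above. The part of this change in the ARC result was not tested.

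The stage difference itself was compared between astrocyte-like and neuron-like cells. No member was called in the edgeR fit, where 3.74% of 13612 genes were called in either direction, and DESeq2 called none. Of the 13612 genes 2222 had an unadjusted p under 0.05. Among the members FOS (−0.67 ± 0.20, adjusted p = 0.0683), FOSB (−0.83 ± 0.35, 0.237) and EGR1 (−0.58 ± 0.22, 0.185) had one, each with the lower value in astrocyte-like cells. Without PFC_2MPT, which leaves 1 library at 2MPT and mixes stage with site, these 3 stood at −0.89, −1.44 and −0.98.

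The cell classes were then compared within the 4 grafts, each library serving as its own block. Between astrocyte-like and neuron-like cells 5 members were called lower in astrocyte-like cells and none higher, where 21.3% of 14870 genes were called lower. NPAS4 was 3.02 ± 0.28 lower on the log2 scale (adjusted p = 1.48e-05), EGR4 2.79 ± 0.33 (6.92e-05) and EGR3 2.75 ± 0.18 (1.31e-06). EGR2 was 2.02 ± 0.23 lower (5.28e-05) and EGR1 1.03 ± 0.19 (0.00122). The AP-1 genes were not called: FOS differed by −0.03 ± 0.18, JUN by −0.06 ± 0.17, JUNB by 0.32 ± 0.14 (0.0814) and FOSB by −0.61 ± 0.25 (0.0685), the last of which was called in 5 alternative analyses, among them per-cell classes (0.00648) and leaving out HIP_2MPT (−0.95, 0.00172). ARC differed by −0.49 ± 0.25 (0.142) and was called in 4, among them per-cell classes (0.0344) and leaving out HIP_4MPT (−0.86, 0.00399), the library in which ARC was higher in astrocyte-like than in neuron-like cells.

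Between progenitor-like and neuron-like cells 6 members were called lower in progenitor-like cells, where 23.2% of 14132 genes were, and 2 higher, where 24.2% were. Those lower were EGR4 at −2.96 ± 0.31 (adjusted p = 1.5e-05), NPAS4 at −2.38 ± 0.29 (3.8e-05), EGR3 at −1.73 ± 0.17 (6.79e-06), EGR2 at −1.39 ± 0.14 (8.31e-06), FOSB at −0.94 ± 0.20 (0.0021) and JUN at −0.46 ± 0.10 (0.00286). JUN was not called with classes set per cell (−0.21, 0.242). Those higher were FOS at 0.46 ± 0.09 (0.00115) and JUNB at 0.37 ± 0.11 (0.0196), and JUNB was not called without HIP_4MPT (0.25, 0.128) or PFC_4MPT (0.31, 0.121). EGR1 differed by 0.08 ± 0.10 (0.524). ARC differed by −0.34 ± 0.32 (0.412) and was called without HIP_4MPT (−0.85, 0.01).

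Between astrocyte-like and progenitor-like cells EGR1 was 1.10 ± 0.19 lower on the log2 scale in astrocyte-like cells (adjusted p = 0.000488), EGR3 1.06 ± 0.24 (0.00315) and EGR2 0.66 ± 0.23 (0.0398), where 17.6% of 11192 genes were called lower. JUN was 0.41 ± 0.13 higher (0.0277), where 17.5% were called higher. The call for EGR3 was lost with classes set per cell (−0.45, 0.287). The calls for EGR2 and JUN were each lost without any of several libraries, EGR2 without HIP_4MPT (−0.72, 0.0537), PFC_2MPT (−0.56, 0.148) or PFC_4MPT (−0.40, 0.353) and JUN without HIP_2MPT (0.29, 0.171), HIP_4MPT (0.42, 0.0611) or PFC_4MPT (0.46, 0.0589). The EGR2 call was also lost with DESeq2 (0.243) and over 1000 UMIs (0.0771). Classes set per cell lost the calls for EGR2 (0.453) and JUN (0.899), as did leaving out the 5% of cells with most UMIs (0.0633 and 0.114). FOS differed by −0.48 ± 0.19 (0.0583) and was called without HIP_2MPT (−0.74, 0.00697) and with classes set per cell (0.00237). It was also called at resolution 1.6 (0.0475), without the 5% of cells with most UMIs (0.0419) and without the filter (0.00506).

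**Figure D4:**
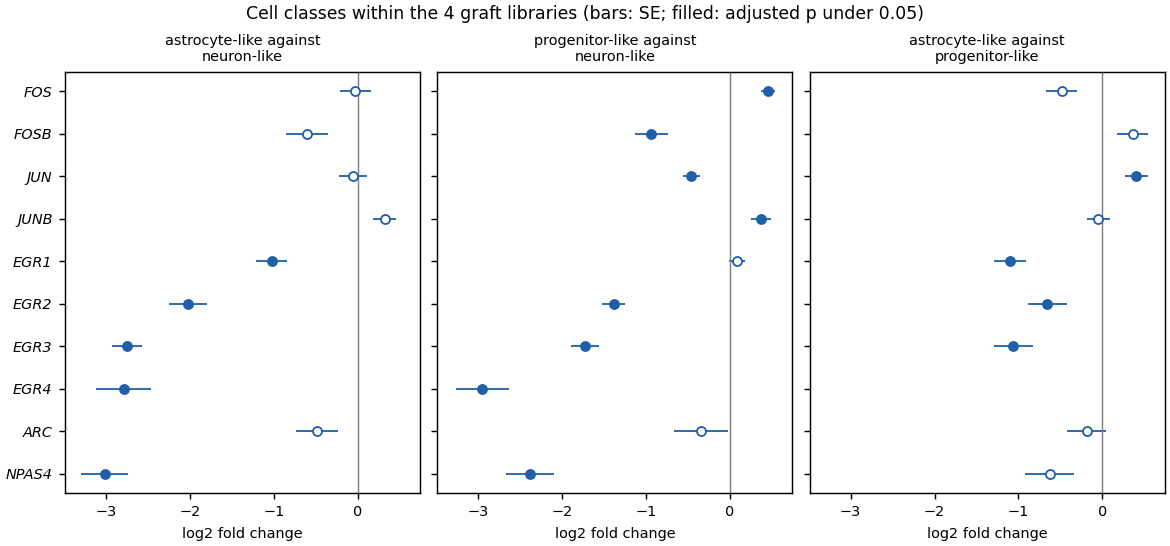
Log2 fold change of each member between cell classes within the 4 grafts, with each library as a block; bars are SE, filled points have an adjusted p under 0.05, and EGR4 was not tested in the right panel. EGR2, EGR3, EGR4 and NPAS4 lie 1.39 or more below 0 in the left and middle panels, and FOS, JUN, JUNB and ARC lie within 0.50 of 0 in both.

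NPAS4 UMIs outside neuron-like cells were few, and they are set here beside neuron markers in the same cells. Free RNA, doublets and expression in those cells were not told apart. In the order HIP_2MPT, PFC_2MPT, HIP_4MPT, PFC_4MPT, astrocyte-like cells had 36.8%, 7.83%, 13.3% and 12.5% of the NPAS4 level of neuron-like cells, beside 25.2%, 9.22%, 9.37% and 13.4% for a list of glutamatergic neuron markers summed in the same cells. For ARC the values were 79.4%, 59.0%, 162% and 48.8%, above the neuron markers in every graft. In progenitor-like cells NPAS4 had 50.2%, 10.2%, 13.3% and 20.5% and ARC 35.7%, 45.8%, 216% and 85.6% of the neuron level, beside 24.2%, 9.71%, 7.61% and 15.2% for the markers. ARC thus lay above the summed list in every graft and both classes. NPAS4 lay below the list in astrocyte-like cells of PFC_2MPT and PFC_4MPT. NPAS4 was farthest above the list in progenitor-like cells of HIP_2MPT, from 18 UMIs. Single markers differed from the list. In progenitor-like cells of HIP_2MPT SYT1 had 51.1% of the neuron level, above ARC and NPAS4. NEUROD6 (29.1%), NEUROD2 (28.7%) and SLC17A7 (19.3%) were below both.

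Depth differed between libraries, so the share of cells with a UMI was read after each cell had been thinned to 1000 UMIs, which left out 130 to 1580 neuron-like cells per library. In the order D0, HIP_2MPT, PFC_2MPT, HIP_4MPT, PFC_4MPT, FOS was found in 11.2%, 73.7%, 75.4%, 54.4% and 78.2% of neuron-like cells. Before thinning the shares were 39.6%, 78.5%, 85.0%, 73.3% and 85.3%. EGR1 was found in 8.16%, 65.6%, 67.9%, 43.4% and 64.7% of thinned neuron-like cells, and in 32.1%, 72.6%, 82.5%, 66.3% and 75.5% before thinning. At equal depth each transcript was thus found in most neuron-like cells of every graft, apart from EGR1 in HIP_4MPT, and in few of those of D0.

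ARC and NPAS4 were found in fewer cells. ARC was found in 5.22%, 19.1%, 27.7%, 3.98% and 16.6% of thinned neuron-like cells (34.0%, 22.8%, 41.4%, 8.03% and 24.1% before thinning), so D0 and HIP_4MPT were the lowest libraries at equal depth. NPAS4 was found in 1.6%, 4.68%, 9.89%, 2.21% and 6.15% (8.71%, 5.79%, 18.5%, 4.36% and 9.70% before thinning). In astrocyte-like cells, of which the kept cells had a median of 1330 to 11101.5 UMIs before thinning against 1308 to 8573 in neuron-like cells, NPAS4 was found in 0% to 1.13%, and EGR4 in 0% to 0.935%. EGR4 was found in 0%, 1.83%, 4.49%, 0.371% and 2.97% of thinned neuron-like cells (0.581%, 2.32%, 7.55%, 0.826% and 4.75% before), so its share in HIP_4MPT lay within the range found in astrocyte-like cells.

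**Figure D5:**
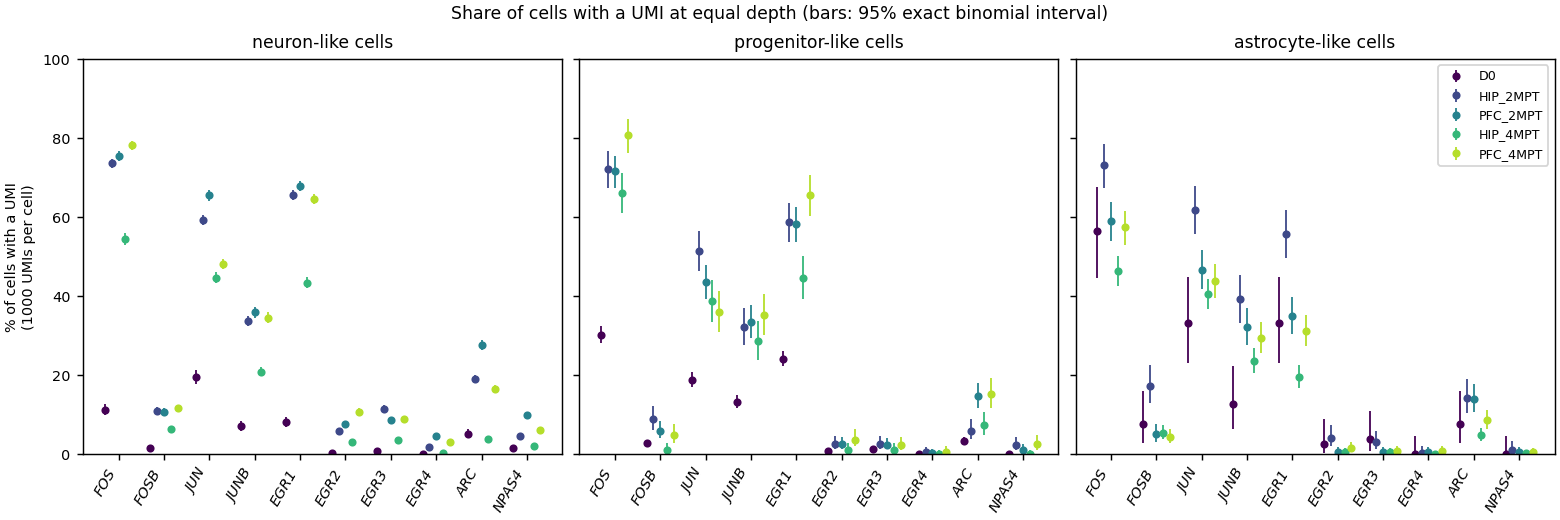
Percentage of cells with at least 1 UMI of each member after thinning every cell to 1000 UMIs, by class (panels) and library (colours); bars are exact binomial 95% intervals of counting error. FOS was found in 54.4% to 78.2% of neuron-like cells of the grafts and in 11.2% of those of D0.

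Graft cells of all 3 classes often held several members at once. After thinning, at least 3 of the 10 were found in 2.43%, 60.1%, 66.2%, 29.7% and 58.0% of neuron-like cells, and at least 5 in 0.103%, 10.0%, 20.4%, 2.38% and 13.6%. In progenitor-like cells the shares with at least 3 were 7.67%, 45.5%, 47.8%, 32.7% and 50.4%. In astrocyte-like cells they were 20.5%, 54.7%, 38.0%, 21.7% and 31.8%. FOS was found in 90.0% of the NPAS4-positive and 73.8% of the NPAS4-negative neuron-like cells of PFC_2MPT, and in 74.3% and 54.0% of those of HIP_4MPT. In HIP_2MPT the shares were 79.0% and 73.4%, in PFC_4MPT 88.1% and 77.6%, and in D0 32.3% and 10.9%. FOS was thus found more often beside NPAS4 in every library, although in HIP_2MPT the intervals overlapped (73.6% to 83.7% against 72.3% to 74.6%). The D0 share rests on 10 of 31 NPAS4-positive cells. These are shares of cells of 1 library each and carry no test.

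Within the neuron-like class of the pooled grafts, levels differed between clusters. Glutamatergic clusters led by neither heat-shock nor MTRNR2L genes had 1663 to 2313 CPM of FOS and 52.9 to 93.5 CPM of NPAS4. The inhibitory cluster (1230 cells, of which 995 came from PFC_4MPT) had 1081 CPM of FOS, 90.5 CPM of ARC and 23.6 CPM of NPAS4. These pooled values mix libraries. Within PFC_4MPT the glutamatergic clusters had 2511 to 3690 CPM of FOS and 73.4 to 115 CPM of NPAS4, and the inhibitory cluster had 1194 and 28.1 CPM. A cluster of 406 cells led by heat-shock genes, from PFC_2MPT and PFC_4MPT for the most part, had 2962 CPM of FOS, 2466 of JUN, 470 of ARC and 171 of NPAS4. NPAS4 was among the 10 leading genes of that cluster and FOSB, at 295 CPM, among those of the MTRNR2L cluster, so these 2 values are descriptions of the clusters. In D0 the Cajal-Retzius cluster (1114 cells) had 133 CPM of FOS, 83.7 of EGR1, 72.9 of ARC and 10.9 of NPAS4.

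Progenitor-like cells were not uniform either. In the pooled grafts the radial glia cluster (548 cells) had 3915 CPM of FOS, 357 of ARC and 7.40 of NPAS4, whereas the cycling clusters had 1925 and 2180 CPM of FOS and 74.4 and 103 CPM of ARC. In D0 radial glia had 558 CPM of FOS and 46.8 of ARC, and choroid-like cells, which have no part in the 3 classes, had 517 and 31.2 CPM.

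Other genes of the response were read from lists fixed with the members. In neuron-like cells, grafts against D0, 3 of 32 further rapid-response genes were called higher and 10 lower, with a median of −0.28, where 28.7% of all genes were higher and 21.2% lower. IER2, an immediate early gene of unclear function, was 3.54 higher and NR4A2, a nuclear receptor of the NGFI-B family, 2.23 higher. IER3 (−3.70), the RNA-decay factor gene ZFP36L1 (−3.48) and KLF6 (−1.73), a Kruppel-like factor, were lower. Among 13 later neuronal targets 1 was called higher, CREM at 1.06, and 6 lower, among them the granin gene SCG2 (−2.17), the G-protein regulator RGS2 (−1.43) and the polo-like kinase gene PLK2 (−1.42), with a median of −1.20.

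The 2 lists that follow belong to the same comparison, where 28.7% of all genes were called higher and 21.2% lower. Of 17 upstream kinases and factors 4 were called higher and 4 lower. Those higher included MRTFA (2.93), an SRF partner, CAMK4 (2.47), a calcium-dependent kinase that acts on CREB, and MEF2A (1.6). Those lower included ELK4 (−1.6), an SRF partner, and the kinase gene MAP2K2 (−1.33). Of 12 heat-shock genes, which encode chaperones, HSPA1A was called higher (2.59) and 6 were lower, among them HSPB1 (−1.71), HSPH1 (−1.53) and HSP90AB1 (−1.24). Heat-shock genes summed to 5003 CPM in neuron-like cells of D0 and 3133 to 4322 CPM in those of the grafts.

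In progenitor-like cells, grafts against D0, 5 of 29 further rapid-response genes were called higher, among them KLF2 (3.24), IER2 (2.18) and NR4A2 (1.55), and 10 lower, where 22.7% of all genes were higher and 18.6% lower. Between astrocyte-like and neuron-like cells of the grafts 9 of 29 were called higher, among them ZFP36L1 (5.46), ZFP36 (4.36) and GADD45B (2.60), and 9 lower, among them the phosphatase gene DUSP1 (−1.39) and IER2 (−0.86), where 23.1% of all genes were higher and 21.3% lower. Of 10 later neuronal targets 7 were lower there, among them NRN1 (−2.96), PLK2 (−2.53) and HOMER1 (−2.53), and 8 of 12 heat-shock genes were higher, among them HSPB1 (3.55). Between progenitor-like and neuron-like cells 12 of 29 further rapid-response genes were higher and 6 lower, 6 of 9 later neuronal targets were lower and 9 of 12 heat-shock genes higher, where 24.2% of all genes were higher and 23.2% lower. Between stages and between sites, genes of these lists were called in astrocyte-like cells alone. Of 23 further rapid-response genes MAFF (−2.11) and CCN1 (−1.46) were lower at 4MPT, where 0.972% of all genes were. Of 12 heat-shock genes HSPA1B (1.68) and HSPA1A (1.55) were higher in PFC grafts, where 11 of 11728 genes were.

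The members varied together to different degrees. Over the 12 sums of 4 grafts by 3 classes, on a log2(CPM + 1) scale, Pearson correlations among EGR2, EGR3, EGR4 and NPAS4 were 0.85 to 0.95, that of FOS with JUNB was 0.83 and that of JUNB with NPAS4 was 0.04. The genes most like the mean of the members over all 15 sums, of 7489 candidates, were NHP2 (r = 0.913), a gene of small nucleolar ribonucleoproteins, ITPA (0.91), SAP30BP (0.907), IER2 (0.904) and ZNF670 (0.903). Over the 12 graft sums, which are among the 15 that chose them, the 8 genes nearest to the members had correlations of 0.725 to 0.823. These sums share libraries, depth and cell makeup, and the values are descriptions.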

How the data were processed

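The authors deposited 10x Genomics count matrices, whole-number UMI counts per gene and barcode with no normalization, for each of the 5 libraries against the human reference and for the 4 grafts also against a joint human and mouse reference. Per the file headers Cell Ranger 3.1.0 made the D0 files (33538 genes) and Cell Ranger 5.0.0 those of the grafts (36601 genes); the submitters' processing notes name Cell Ranger 3.1, R 4.1.1 and build GRCh38. The mouse part of the joint reference is labelled mm10.

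From these counts, cells were kept with over 500 UMIs, over 500 genes, a log10 genes to log10 UMIs ratio over 0.80 and a mitochondrial share under 0.15, and, in grafts, a human share of UMIs over 0.8. Barcodes with over 500 mouse UMIs and a human share below 0.2 were taken as host cells. Cells were normalized and clustered with Seurat 5.3.0 and sctransform 0.4.2 under R 4.3.3 (2500 variable features, of which 23 members and rapid-response genes were left out, 40 components, resolution 0.8). A cluster was named from its marker lists where at least 3 markers were detected in a share of cells over 0.05 and the score led the next by 0.25, thresholds set after the clusters had been seen. Clusters without a name were in no class and held, in turn, 0.362% to 12.7% and 0.918% to 3.36% of the cells of a library. Setting each cell by its own markers gave the same class to 93.0% of the 29578 cells that had a class both ways, and 2236 cells lay near a limit. Astrocyte-like cells set this way numbered 13 in D0, against 85 by clusters. They numbered 96 in HIP_2MPT and 93 in PFC_2MPT, against 371 and 418, and 782 in HIP_4MPT and 770 in PFC_4MPT, against 715 and 551. No doublet caller was run, and the sources used here state no doublet removal. An alternative leaves out the 5% of cells with most UMIs.

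UMI counts were summed per library and class and tested with edgeR 4.0.16 (quasi-likelihood F-test, TMM scaling, filtering of low genes by expression), adjusted by Benjamini-Hochberg over all genes tested. Stage comparisons used the 4 grafts without a site term. Site comparisons had stage as a term. Comparisons between classes had the library as a block. The grafts were set against D0 as the mean of both stages, in a fit with stage as a term, so the spread came from the grafts. Alternatives were DESeq2 1.42.0, no filter, other cell filters, the joint reference, resolution 1.6, per-cell classes, clusters left out, added or dropped model terms and each library left out. On simulated counts of the 4MPT against 2MPT comparison of neuron-like cells (15904 genes) the test found 74 of 100 genes changed 4-fold and 18 of 100 changed 2-fold, with 5 false calls. Of the PFC against HIP comparison it found 75 of 100 and 19 of 100, with 5 false calls.

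The rule for named genes took all 10 members, for each list up to 3 called genes in each direction with the largest fold change (mean level 10 CPM or more), and the 8 genes most like the members; DLX5 and KCTD8 were named after their values had been seen. The members and lists were chosen with earlier results of these data known. The depth of the human cells was 11192237 to 55892222 UMIs per library. Python 3.11.15, pandas 2.3.3 and scipy 1.17.1 were used for sums, exact intervals and thinning. EGR3 and ARC are given without sequence or position. Not every gene that the rule for lists takes is reported here.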

Additional observations from a re-analysis of the deposited data

Results flagged for a closer look

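Neuron-like cells of HIP and PFC grafts moved in opposite directions between 2MPT and 4MPT for 3 members. The ratio of the 4MPT to the 2MPT level was 0.769 in HIP and 1.12 in PFC grafts for FOS, 0.641 and 1.15 for FOSB, and 0.507 and 1.38 for EGR2, each past the counting intervals of the libraries. Without the clusters led by heat-shock or MTRNR2L genes FOSB had 122 CPM in PFC_2MPT and 123 CPM in PFC_4MPT, with overlapping intervals, and EGR2 had 84.2 and 116 CPM. FOSB is itself among the leading genes of the MTRNR2L cluster. The part of those clusters in the PFC ratios was not tested. The difference between the sites was not tested, since each ratio rests on 1 library per stage.

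The change from D0 to the grafts was larger in neuron-like than in progenitor-like cells for 7 members, by a test of the difference added after the values had been seen. On the log2 scale the difference was 1.5 for FOS, 2.53 for FOSB, 0.91 for JUNB, 1.84 for EGR1, 3.53 for EGR2, 3.32 for EGR3 and 2.89 for EGR4. JUNB and EGR4 did not pass with DESeq2 or with glutamatergic clusters alone. The test holds no spread of D0.

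Mouse host cells, which have no part in the comparisons, carried mouse Fos at 2524 CPM in HIP_2MPT (916 host cells), 4949 CPM in PFC_2MPT (772), 1392 CPM in HIP_4MPT (2071) and 2615 CPM in PFC_4MPT (1202). In the same order Jun had 2263, 6057, 1252 and 1912 CPM and Junb 4083, 4988, 1317 and 2851 CPM. Egr1 had 1346, 2006, 421 and 764 CPM and Egr2 97.1, 139, 17.0 and 49.4 CPM. These genes, like Fos, were higher in PFC than in HIP grafts at both stages and lower at 4MPT at both sites. Fosb and Egr3 were also lower at 4MPT at both sites, but at 2MPT were lower in the PFC graft. The part of this in the human differences was not tested. Npas4 had 0 UMIs in the host cells of 3 grafts and 2 UMIs in those of PFC_4MPT. Mouse neuron markers were low there too. In the same order Neurod6 had 0, 0, 2 and 0 UMIs, and Stmn2 had 2.33, 109, 4.58 and 207 CPM. These values therefore say little about host neurons. The host cells were digested together with the grafts.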

How the results depend on the processing

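No paired analysis was possible because the labels give no replicate numbers to pair by, beyond the fits with library, stage or graft site as a term. Site comparisons could not be run without a library, which leaves no residual degrees of freedom. Of the members' fold changes under the alternatives 1776 kept their side of the threshold, 61 gained a call, 30 lost one and 2 reversed, both in astrocyte-like against progenitor-like cells with classes set per cell: JUN at −0.031 and NPAS4 at 0.48. The cause was not tested. Of all 1869 such values 78 changed sign within their error. The number of members called between stages in astrocyte-like cells, 1 as reported, was 0 with per-cell classes, 3 without a filter on low counts and 3 with graft site as a block. In neuron-like cells, 0 as reported, it was 1 without the filter and 1 with the block, and in progenitor-like cells it stayed at 0. Stage fits with a library left out are not counted here, since a stage then rests on 1 library and is mixed with site. Between sites in neuron-like cells 1 member was called as reported, 3 with a mitochondrial share under 0.10, over 1000 UMIs, the joint reference, per-cell classes, no intermediate clusters, glutamatergic clusters alone, no filter and DESeq2, and 0 without the 5% of cells with most UMIs or without stage in the fit. Between astrocyte-like and progenitor-like cells 4 were called, 2 with per-cell classes and 2 to 4 with a library left out. For the stage difference between classes 0 were called, and 1 without the filter. Calls over all genes ranged from 0 to 32 between sites and from 70 to 872 between stages in neuron-like cells, beside 3 and 135 as reported. Depth limits EGR4 and NPAS4 most, whose counts outside neuron-like cells were 36 UMIs or fewer.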

Other observations

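Beside the 3 classes, an unnamed cluster of the grafts led by OLIG1 and EGFR (1611 cells), genes of glial and oligodendrocyte precursors, carried 3305 CPM of FOS and 340 CPM of ARC but 4.65 CPM of NPAS4. It made up 12.7% of the human cells of HIP_4MPT and 7.63% of those of PFC_4MPT, against 1.09% of PFC_2MPT and 0.362% of HIP_2MPT. These values belong to no comparison.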
